A study of Ovis aries with 2 samples.

Results

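CLEC1B GP1BB megakaryocyte-like cells were 498 of the 14554 cells kept from the Ujumqin library of sheep embryos at embryonic day 16. They made up 3.42% of those cells (exact binomial 95% interval 3.13 to 3.73). In the Hulunbuir Short-tail library of the same embryonic day, 1 of 9583 kept cells met the same rule. A member carried at least 2 UMIs (unique molecular identifiers, which count captured RNA molecules) summed over CLEC1B and GP1BB. It also had a UMI of fewer than 3 of the 6 endothelial genes CDH5, PECAM1, TIE1, TEK, EGFL7 and PLVAP. Kept cells had at least 200 genes detected and under 10% of their UMIs on mitochondrial genes. The cells were therefore selected on their measured CLEC1B, GP1BB and endothelial UMIs, and those values are given below only as a description.

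The study set the long fat-tailed Ujumqin sheep beside the Hulunbuir Short-tail sheep, and both libraries were droplet 3′ single-cell RNA libraries of whole embryos. Ewes of both breeds had received progesterone and pregnant mare serum gonadotropin to synchronise them before mating. Extraembryonic tissue was dissected away, a red blood cell lysis buffer was applied during dissociation, and the embryos of a breed were pooled into 1 library. With 1 library per breed, breed, library and dissection cannot be told apart, so no test was made and intervals cover counting error only.

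Megakaryocytes are the cells that release platelets, and in the embryo they arise together with the primitive red cells of the yolk sac. CLEC1B encodes CLEC-2, a platelet receptor that binds podoplanin and signals through the kinase SYK. GP1BB encodes a chain of the platelet receptor for von Willebrand factor. The transcription factor GATA1 is needed in both the megakaryocyte and the erythroid lineage.

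The Ujumqin library held 17059 barcodes with 212933364 UMIs in all, and the Hulunbuir library held 10709 barcodes with 131385353 UMIs. The median depth was 9519 UMIs per kept Ujumqin cell and 11879 per kept Hulunbuir cell. The 498 members had a median of 7296 UMIs and 1519 genes, and together 6096267 UMIs. Of 61 barcode sequences found in both libraries, 3 belonged to members. Scrublet, a doublet caller, marked 159 Ujumqin cells, or 1.09%, of which 2 were members, and it marked only 1 Hulunbuir cell, so it gave no usable call there. Levels below are summed UMIs per 1000000 summed UMIs of a group of cells (CPM), with exact Poisson 95% intervals.

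The selected cells ranged from 2 to 122 UMIs over the rule genes, with a median of 18. CLEC1B ranged from 0 to 71 UMIs per cell with a median of 5, and GP1BB from 0 to 57 with a median of 13. UMIs of both genes were found in 391 members, GP1BB alone in 88 and CLEC1B alone in 19. SEPTIN5, the RefSeq neighbour of GP1BB (assembly ARS-UI_Ramb_v3.0, names only), had no row under that symbol, so reads of the pair cannot be told apart here. At the edge of the rule, 76 members had exactly 2 UMIs, while 467 cells with 1 UMI and fewer than 3 endothelial genes lay just outside. No UMI of any of the 6 endothelial genes was found in 351 members, 120 had a UMI of 1 of them and 27 of 2. A further 15 kept cells with at least 2 rule UMIs were excluded because they had 3 or more endothelial genes.

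The other 3 marker genes were not used by the rule. The members were chosen with earlier results of these data known, so these levels are a description and no independent check of the label. ECM1, an extracellular matrix glycoprotein, stood at 476 CPM in the members (95% interval 459 to 494) and at 6.85 CPM in the other kept Ujumqin cells. FCER1G, the signalling chain shared by Fc receptors and the platelet collagen receptor, stood at 336 CPM (322 to 351) against 4.5 CPM. GATA1 stood at 154 CPM (144 to 164) against 44.1 CPM, a 3.49-fold difference. The GATA1 level of the other cells came mostly from red cells: it was 81.7 CPM in the erythroid cells described below and 6.98 CPM in kept cells that were neither erythroid nor endothelial. All 3 were higher in the members than in the other cells.

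Several defining genes of the lineage were near or at 0. GP1BA, the partner chain of GP1BB, had 43 UMIs in the members and 7.05 CPM, and GP9, the third component of that receptor, had 33 UMIs and 5.41 CPM. No UMI was counted for PPBP, an abundant platelet chemokine, or for CD36. TUBB1, the tubulin of the platelet marginal band, had 46 UMIs and 7.55 CPM against 0.0246 CPM elsewhere. PF4, ITGA2B, ITGB3, GP5 and GP6 had no row under those symbols and were not analysed here. The feature GPATCH8, a RefSeq neighbour of ITGA2B, stood at 538 CPM in the members and 2.5 CPM in the other cells, and reads of these 2 neighbours cannot be told apart here.

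The most abundant RNA that set the members apart had no gene name in the annotation. Feature ENSOARG00020002928 was detected in 495 of the 498 members and stood at 20640 CPM, against 104 CPM in the other kept Ujumqin cells. Per cell it ranged in the members from 0 to 111266 CPM with a lower quartile of 11737 CPM. The upper quartile was 84.0 CPM in the endothelial cells and 159 CPM in the erythroid cells, although single cells of both groups reached 73435 and 6618 CPM. Most members thus lay above most cells of both groups. The feature was not confined to the members, however. In the 181 other cells of the TYROBP-led cluster described below, its median was 12739 CPM per cell. In the 67 members outside the CD40LG-led and TYROBP-led clusters its median was 886 CPM.

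**Figure D1:**
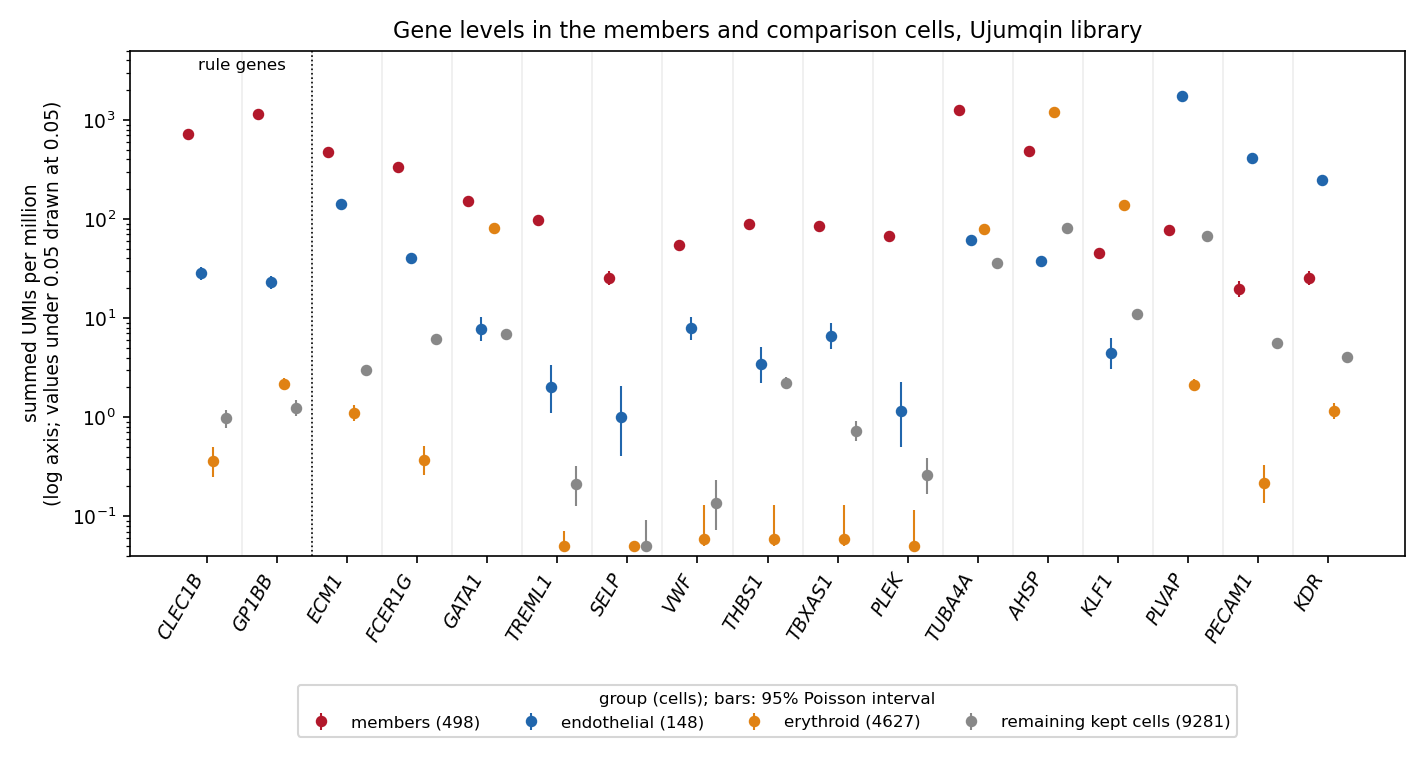
Levels of 17 genes in CPM (log axis) in the members and in 3 groups of other kept Ujumqin cells, with 95% Poisson intervals; points under 0.05 are drawn at 0.05. The members had 98.7 CPM of TREML1 against 2.01 in endothelial cells, while AHSP was at 492 CPM in the members and 1205 in erythroid cells.

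Of 1702 features with at least 50 CPM in either group, 99 (5.82%) were at least 4-fold higher in the members than in the other kept cells and 12 (0.705%) at least 4-fold lower. The median feature was 0.17 higher on the log2 scale. The 25 genes of largest ratio among those with at least 50 UMIs and a UMI in at least 10% of members included the 2 rule genes, 8 genes of the 4 platelet lists and 15 genes on none of them. TREML1, a receptor stored in platelet granules, led them with 98.7 CPM against 0.177 (558-fold, log2 9.12, interval 8.64 to 9.65). CD40LG, the ligand of CD40 on T cells and activated platelets, had 25.1 CPM against 0.0491. SELP, the adhesion molecule P-selectin, had 25.3 CPM against 0.0541. These 3 genes were seen in 51.8%, 19.7% and 21.9% of members.

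Of the 25, 3 were on the list of granule and secreted proteins and 4 on that of signalling and eicosanoids. PLEK, the protein kinase C substrate pleckstrin, stood at 66.9 CPM against 0.187, and MMRN1, the factor V carrier multimerin, at 63.8 CPM against 0.236. RGS18, which limits G protein signals in platelets, stood at 30.8 CPM against 0.143. VWF stood at 55.1 CPM against 0.364, and TBXAS1, thromboxane synthase, at 85.1 CPM against 0.6. LTC4S, leukotriene C4 synthase, stood at 252 CPM against 3.07. BTK, WAS and LCP2, signalling and actin regulators of blood cells, were 204, 142 and 114-fold higher.

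The 15 genes on no platelet list included several of large level. NRGN, the calmodulin-binding neurogranin, stood at 627 CPM against 7.02, and FXYD4, a regulator of the sodium pump, at 355 CPM against 4.38. DHRS7, a dehydrogenase, stood at 425 CPM against 2.83. AQP11, an aquaporin of internal membranes, stood at 39.4 CPM against 0.108, and PTH2, which encodes a neuropeptide, at 32.8 CPM against 0.138. IRAG1, IRAG2, SYTL3 and GSAP were 298, 234, 219 and 136-fold higher. TFF2, a trefoil peptide of mucosa, stood at 70.9 CPM against 0.437, but 366 of its 432 UMIs (84.7%) came from 10 members.

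Genes of the platelet lists were counted at every level, since many reached 50 CPM only in the members and so had to differ. Of all 17291 features with a UMI in either group, 48.5% were higher in the members than in the other kept cells. Of 19 receptor genes without the rule genes, 14 were higher in the members, 2 were lower and 3 had no UMI in either group. Of the 4 receptor genes that reached 50 CPM, 3 did so only in the members, and they are given by value. CD9, a tetraspanin of the platelet surface, stood at 208 CPM against 24.3, and F2R, the thrombin receptor, at 111 CPM, 5.55-fold the level of the other cells. CD63, a granule membrane protein made by most cells, stood at 1563 CPM against 596 and missed 4-fold. MPIG6B, an inhibitory receptor of the lineage, was sparse, with 23 UMIs and 3.77 CPM.

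Of 21 granule and secreted proteins, 17 were higher in the members and 3 lower. All 6 that reached 50 CPM did so only in the members, among them THBS1, the adhesive protein thrombospondin, at 88.6 CPM against 1.19, and SRGN, the proteoglycan that packs granules, at 74.8 CPM against 3.92. TGFB1, the secreted growth factor, was 2.49-fold higher and missed 4-fold. Of 34 signalling and eicosanoid genes, 29 were higher in the members and 5 lower, and the 8 that reached 50 CPM did so only in the members. RASGRP2, which activates the integrin switch RAP1, stood at 176 CPM against 2.56, and FERMT3, the integrin activator kindlin-3, at 302 CPM against 10.2. PTGS1, the cyclooxygenase that feeds thromboxane synthesis, stood at 97.3 CPM against 17.1.

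Of 20 cytoskeletal genes of platelets, 18 were higher in the members and 2 lower. Of the 12 that reached 50 CPM, 7 did so only in the members and 5 in both groups. TUBA4A, an alpha tubulin of platelets, stood at 1257 CPM against 58.9. ZYX and TLN1, proteins of focal adhesions, stood at 1183 CPM against 88.0 and at 581 CPM against 54.8. MYL6, a myosin light chain of most cells, stood at 1875 CPM against 724 and missed 4-fold. MYH9, the non-muscle myosin heavy chain, stood at 216 CPM against 25.8. MYL4, an embryonic and atrial myosin light chain that had been placed on the cardiomyocyte list, stood at 381 CPM against 22.9 and was seen in 57.4% of members.

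**Figure D2:**
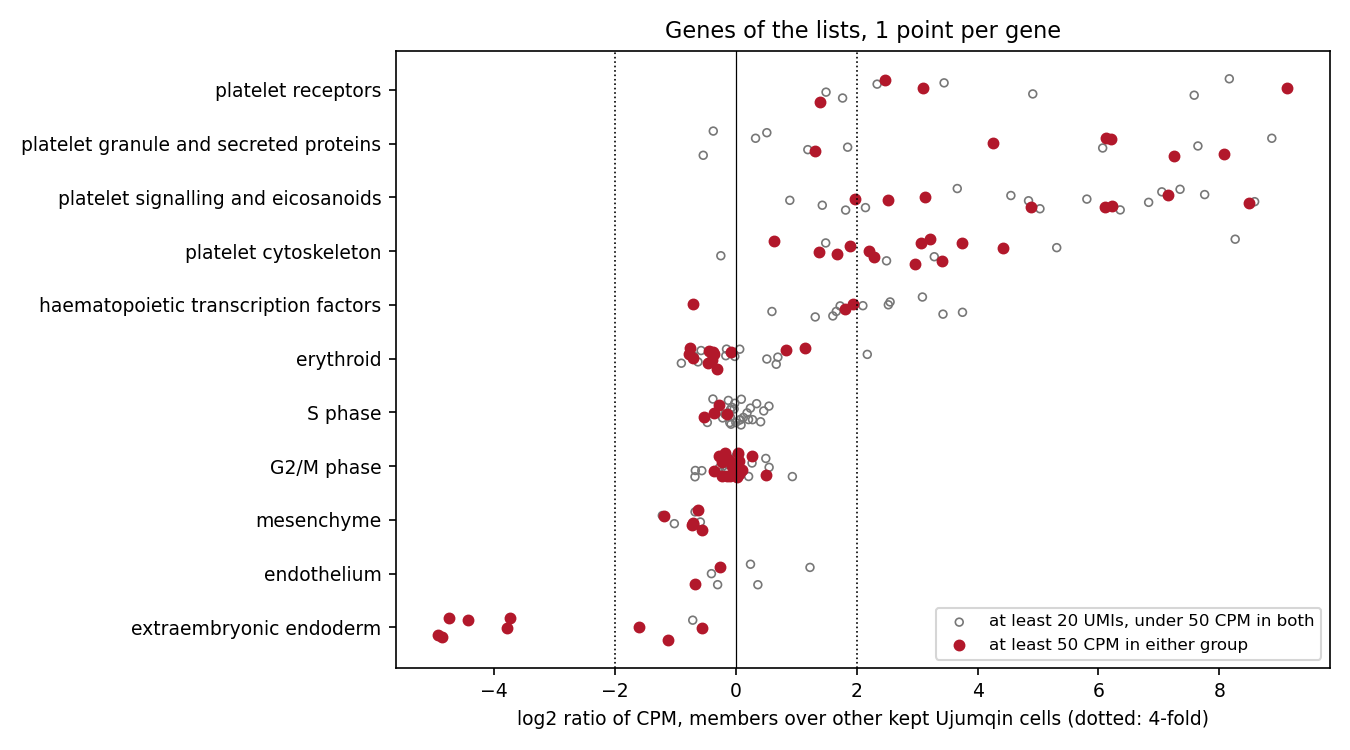
log2 ratio of CPM in the members over the other kept Ujumqin cells for the genes of 11 lists, without CLEC1B and GP1BB, 1 point per gene. Filled points have at least 50 CPM in either group, open points at least 20 UMIs in the members, other genes are not drawn, and dotted lines mark 4-fold. Platelet genes spread to the right up to 9.12 for TREML1, and the points of extraembryonic endoderm reach -4.92 for TTR. The median of the filled points is -0.38 for the erythroid list, -0.32 for S phase and -0.05 for G2/M.

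Transcription factors of blood cells were detected unevenly. Of 32 listed factors with a feature, 14 had at least 20 UMIs in the members and 5 had none. At every level, 23 of the 32 were higher in the members than in the other kept cells and 9 were lower. Over all features with a UMI in either group, 48.5% were higher. The list summed to 450 CPM in the members and 185 CPM in the other kept cells, but none of the 3 testable factors reached 4-fold. ZFPM1, the partner of GATA1, stood at 60.7 CPM against 15.8, and missed 4-fold at 3.85-fold. MEIS1, a factor of stem cells and megakaryocytes, stood at 47.4 CPM against 5.57, under the 50 CPM minimum of the count. KLF1, the erythroid factor, was lower than in the other kept cells, at 44.9 CPM against 73.7. FLI1 had 23 UMIs, NFE2, which drives the last steps of platelet formation, had 61, GATA2 had 4 and RUNX1 had 1. SPI1, the myeloid factor, had none. Among 19 receptors and markers of blood progenitors, CD164 alone had 20 UMIs or more.

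Genes of red cells were present in the members at an intermediate level. The summed erythroid list stood at 3745 CPM in the members (3696 to 3794), at 7977 CPM in the 4627 erythroid cells and at 1216 CPM in the kept cells that were neither erythroid nor endothelial. Erythroid cells had at least 10 UMIs and 1000 CPM over ALAS2, AHSP, SLC4A1, HEMGN and EPB42, and were neither members nor endothelial. AHSP, the chaperone of alpha globin, stood at 492 CPM in the members, 1205 CPM in the erythroid cells and 37.9 CPM in the endothelial cells. ALAS2, the first enzyme of erythroid haem synthesis, stood at 201, 487 and 14.5 CPM. None of the 12 testable erythroid genes was 4-fold higher or lower than in the other kept cells, and their median log2 ratio was -0.38. Those other kept cells include the 4627 erythroid cells. At every level, 9 of 32 erythroid genes were higher in the members and 23 lower, beside 51.5% lower over all features with a UMI. Against the erythroid cells alone, 6 were higher and 25 lower, beside 24.3% lower over all features.

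A number of members met the erythroid criterion themselves, namely 90 of 498 (18.1%). Those 90 had a median depth of 21242 UMIs, against 6188 UMIs in the other 408. Feature ENSOARG00020015536, the most abundant unnamed feature of the erythroid cells at 213063 CPM, made up 75141 CPM in the members and 7144 CPM in the endothelial cells. Without the 90 cells, the number of features at least 4-fold higher in the members was 139 in place of 99. The part of free red cell RNA and of mixed droplets in these values was not tested.

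Markers of other cell types were present in the members to different degrees. Of 21 macrophage genes, 10 had no UMI, among them CSF1R, C1QA, CD14 and CD163, and 6 had at least 20 UMIs. That list summed to 86.4 CPM against 20.3 in the other cells. At every level, 11 of its genes were higher in the members, 6 were lower and 4 had no UMI in either group. Over all features with a UMI in either group, 48.5% were higher. Of 16 granulocyte and mast cell genes, 11 had no UMI, among them MPO, CPA3 and FCER1A. At every level, 5 were higher in the members and 5 lower. Of 27 endothelial genes, 10 had none, including the rule gene CDH5 as well as CLDN5 and EMCN. That list summed to 195 CPM in the members, 211 CPM in the other kept cells and 3433 CPM in the endothelial cells. Of its genes, 10 were higher in the members than in the other kept cells and 17 lower, and PLVAP was seen in 20.5% of members. The mesenchyme list summed to 2835 CPM in the members, 140 CPM in the erythroid cells and 4690 CPM in the other kept cells, and the epithelial list to 1230, 64.6 and 1429 CPM. Both lists were uneven within the members. They stood highest, at 6316 and 2841 CPM, in the 67 members outside the CD40LG-led and TYROBP-led clusters described below. The part of free RNA and of mixed droplets in these sums was not tested. None of 6 testable mesenchyme genes and neither of 2 epithelial genes reached 4-fold: VIM, a filament of mesenchyme, stood at 1352 CPM against 2228, and KRT19, an epithelial keratin, at 688 CPM against 686. On the granulocyte list SRGN alone was testable, and on the cardiomyocyte list MYL4 alone.

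Few genes of the remaining lists reached 4-fold against the other kept cells. None of 4 testable S phase genes and none of 17 G2/M genes reached 4-fold, with median log2 ratios of -0.32 and -0.05. Of 4 genes of cyclins and polyploidy, CDKN1A alone was at least 4-fold higher, at 73.3 CPM and 5.63-fold. Of 2 neural genes CRABP1 was at least 4-fold lower, at 9.68 CPM against 72.5. Of 7 stress genes 1, MT1A, was at least 4-fold lower. No gene of the lists of CLEC-2 relatives or of thrombopoietin and vessel signals had 50 CPM in either group.

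Of the 12 features at least 4-fold lower in the members, 6 were on the list of the extraembryonic endoderm, the yolk sac layer that secretes serum proteins. The list had 9 testable genes, of which 5 reached 50 CPM only in the other kept cells and so had to be lower in the members. At every level, 18 of its 19 genes were lower in the members and 1 was higher. Over all features with a UMI in either group, 51.5% were lower. AHSG stood at 97.3 CPM against 2599, SERPINA1 at 35.6 CPM against 1028 and TTR at 18.7 CPM against 565. Their level in the erythroid cells was as low, at 77.4, 30.2 and 15.5 CPM. AHSG was still seen in 62.9% of members.

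Set beside endothelial cells, the members differed in part of the platelet genes. The 148 endothelial cells had a UMI of 3 or more of the 6 endothelial genes, which the rule also used. Of 1869 features tested, 85 (4.55%) were at least 4-fold higher in the members and 71 (3.8%) at least 4-fold lower. Receptor genes were higher in the members in 11 of 19 cases and lower in 5, granule genes higher in 17 of 21 and lower in 2, signalling genes higher in 25 of 34 and lower in 8, and cytoskeletal genes higher in 17 of 20 and lower in 2. Of the 12 cytoskeletal genes that reached 50 CPM, 4 were at least 4-fold higher. Over all features with a UMI in either group, 50.8% were higher. Higher genes included RGS18 at 30.8 CPM against 0.432, PLEK at 66.9 CPM against 1.15 and TREML1 at 98.7 CPM against 2.01. All 7 testable endothelial genes were at least 4-fold lower, but both groups were chosen on endothelial genes. PECAM1 and PLVAP among the 7 were used by the rule. Besides, 6 of the 7 reached 50 CPM only in the endothelial cells and so had to be lower in the members. KDR, the VEGF receptor, stood at 25.6 CPM against 248 and was among these 6, although the rule did not use it. At every level, 26 of the 27 listed endothelial genes, those of the rule included, were lower in the members and 1 was higher. ECM1 and NRGN were also measurable in the endothelial cells, at 143 and 113 CPM.

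Set beside erythroid cells, genes of many kinds were higher in the members. Of 1651 features, 296 (17.9%) were at least 4-fold higher in the members and 3 (0.182%) at least 4-fold lower. Over all features with a UMI in either group, 75.7% were higher in the members. Of the platelet genes, 15 of 19 receptor genes, 19 of 21 granule genes, 30 of 34 signalling genes and 18 of 20 cytoskeletal genes were higher. Of the genes that are not of platelets, 17 of 18 mesenchyme genes and 10 of 15 epithelial genes were also higher. The median feature was 0.86 higher on the log2 scale, so part of each ratio is shared by all genes. THBS1 stood at 88.6 CPM against 0.0595, TBXAS1 at 85.1 CPM against 0.0595 and NRGN at 627 CPM against 0.426. To set the shares of cells at equal depth, each cell was thinned to 1000 UMIs, which left 447 members. GATA1 was then seen in 21.3% of members and 8.04% of erythroid cells, whereas unthinned it was seen in 68.1% and 78.2%. After thinning, ECM1 was seen in 40.0% of members and 0.0648% of erythroid cells.

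The level of the platelet genes followed the number of rule UMIs. The 4 platelet lists, 94 genes without CLEC1B and GP1BB, summed to 11053 CPM over all members and 2099 CPM over the other kept cells. Among the latter the sum was 731 CPM in erythroid cells, 4496 CPM in endothelial cells and 3367 CPM in cells that were neither. In the 76 members with exactly 2 rule UMIs the lists summed to 2227 CPM (2127 to 2331), against 1669 CPM in the cells with 1 UMI just outside. Those 76 members thus lay below the endothelial cells and below the cells that were neither. With 3 to 4 rule UMIs they summed to 3781 CPM, with 10 to 19 to 9167 CPM and with 50 or more to 21797 CPM. The 5 genes of the erythroid criterion stood at 1475 CPM at 2 UMIs, 1086 CPM at 3 to 4, 624 CPM (569 to 684) at 5 to 9, 738 CPM (682 to 797) at 10 to 19, 493 CPM at 20 to 49 and 512 CPM at 50 or more. Cells at the low end were of mixed depth: 23 of the 76 met the erythroid criterion.

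**Figure D3:**
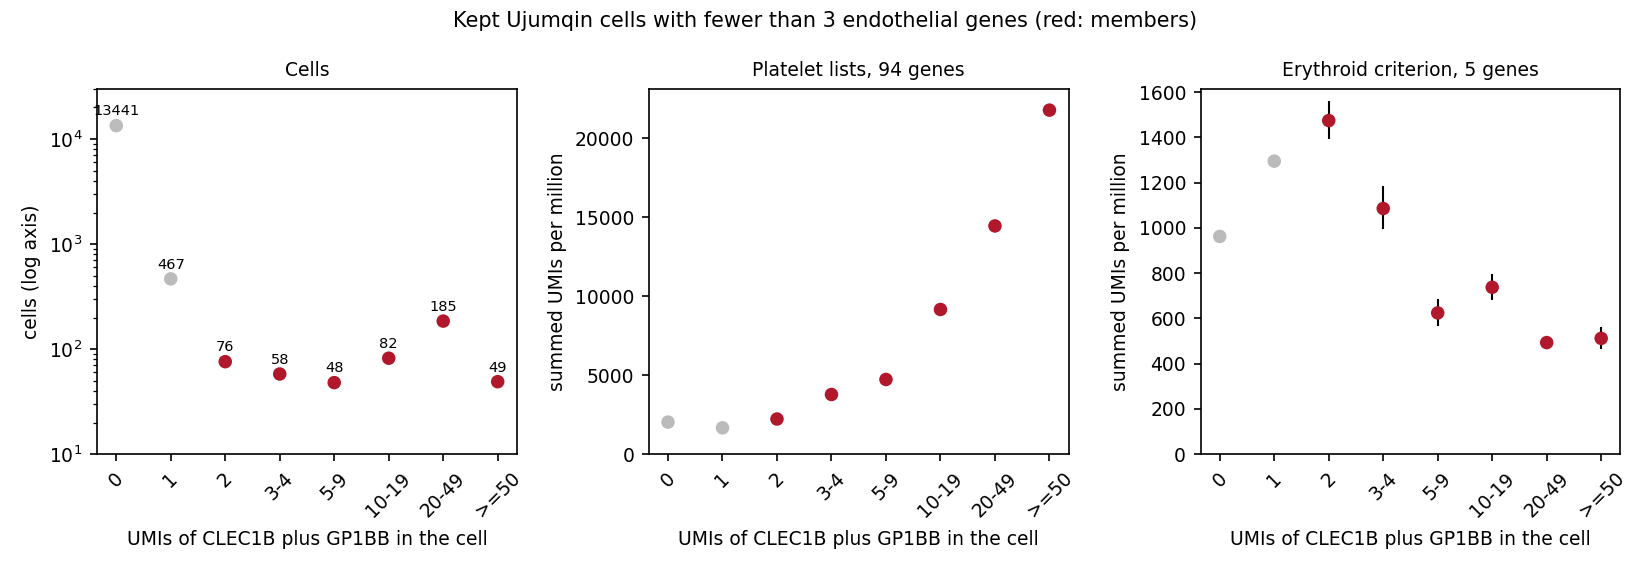
Kept Ujumqin cells with fewer than 3 endothelial genes, by their UMIs of CLEC1B plus GP1BB; members in red. The number of cells (log axis), the summed CPM of 94 platelet genes and that of 5 erythroid genes are drawn, with 95% Poisson intervals; the platelet genes stood between 2227 CPM at 2 UMIs and 21797 CPM at 50 or more.

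Split by which rule gene was seen, the members also differed in depth, and since the split uses the rule's own UMIs it is a description. In those with both genes the 94 platelet genes summed to 13593 CPM at a median of 7026 UMIs, and 57 of them met the erythroid criterion. The sum was 3023 CPM in the 88 members with GP1BB alone and 6366 CPM in the 19 with CLEC1B alone. The GP1BB-only members were deeper, with a median of 14622 UMIs, and 31 of them met the erythroid criterion. The CLEC1B-only members had a median of 1523 UMIs, and 2 of them met it.

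When the kept cells were clustered without the 8 rule genes, the members fell into 2 clusters and a remainder. A cluster of 219 cells led by CD40LG, SYTL3, AQP11 and SELP held 217 members, 99.1% of its cells. A cluster of 395 cells led by TYROBP, CLEC12A and CTSS held 214 members, 54.2% of its cells. The remaining 67 members lay in 12 of the other 20 clusters, 32 of them in the 2 mostly erythroid clusters. The split depended on the clustering resolution, which was 1 here. At resolution 0.5, 1 cluster of 612 cells held 431 members, the number that these 2 clusters held together. The clusters were made from the same cells, so the differences below are descriptions.

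Members of the CD40LG-led cluster had the highest platelet gene levels of the 3 sets. Their platelet genes summed to 25844 CPM, against 7494 CPM in the members of the TYROBP-led cluster and 3894 CPM in the remainder. The endothelial cells, at 4496 CPM, lay above the remainder, and kept cells neither erythroid nor endothelial stood at 3367 CPM. Per cell these genes ranged from 11508 to 53181 CPM with a median of 24885 CPM in the CD40LG-led cluster. In the TYROBP-led cluster they ranged from 1574 to 30303 CPM with a median of 9258 CPM, so the 2 ranges overlapped. The median depth was 6416 UMIs in the former, 8978 UMIs in the latter and 25493 UMIs in the remainder.

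**Figure D4:**
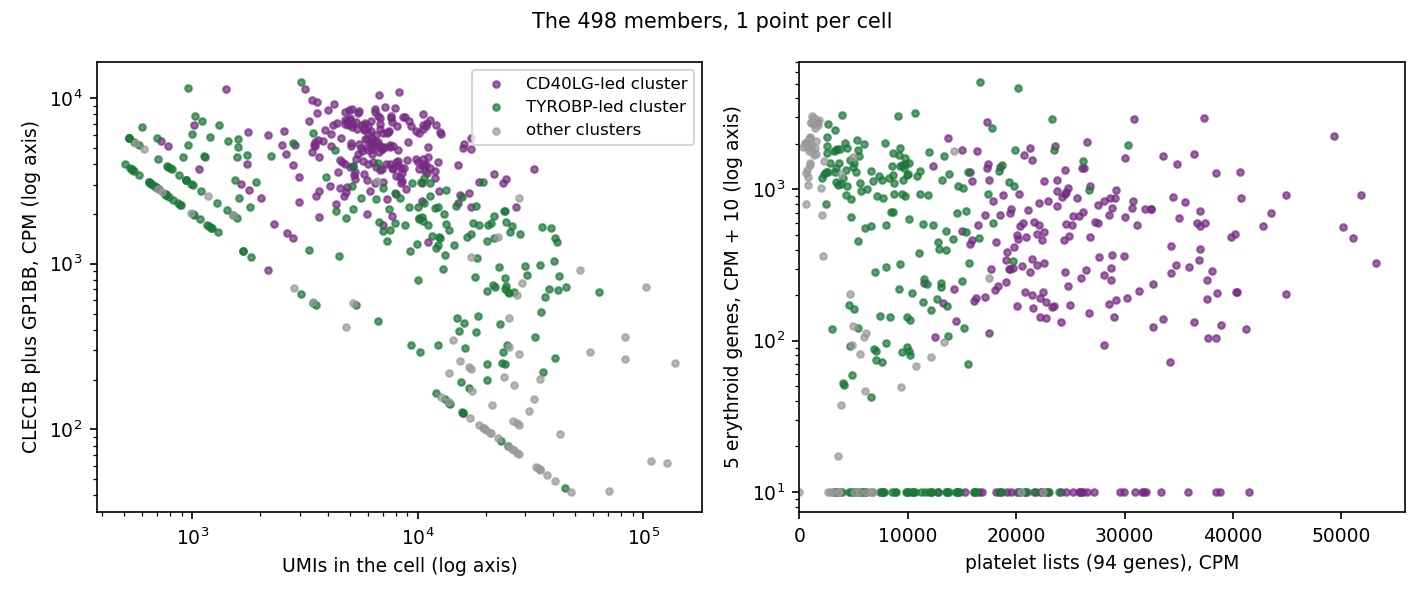
The 498 members, 1 point per cell, coloured by cluster. The left panel draws CLEC1B plus GP1BB in CPM against the UMIs of the cell (both log axes), and the right panel the 5 erythroid genes in CPM + 10 (log axis) against the 94 platelet genes in CPM; the CD40LG-led cluster lies from 11508 CPM of platelet genes upward.

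Of 1930 features, 87 (4.51%) were at least 4-fold higher in members of the CD40LG-led cluster than in those of the TYROBP-led cluster and 16 (0.829%) at least 4-fold lower. DHRS7 stood at 1269 CPM against 180, LTC4S at 741 CPM against 106 and ECM1 at 1388 CPM against 220. CALD1, an actin-binding protein, stood at 5623 CPM against 885, TUBA4A at 3383 CPM against 739 and MYL4 at 1017 CPM against 154. VWF stood at 159 CPM against 26.6 and GATA1 at 329 CPM against 122. CDKN1A, an inhibitor of the cell cycle, stood at 173 CPM against 50.3.

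Few erythroid, mesenchymal or cycling genes reached 4-fold between these members, but most were lower in the CD40LG-led ones. At every level, 21 of 32 erythroid genes were lower there and 10 higher, and 15 of 18 mesenchyme genes lower and 2 higher. All 38 S phase genes were lower, and of 42 G2/M genes 38 were lower and 3 higher. Over all features with a UMI in either group, 46.4% were lower. At least 4-fold lower in the CD40LG-led members were 1 of 8 testable erythroid genes, 1 of 6 mesenchyme genes, 0 of 6 S phase genes and 1 of 18 G2/M genes, and none of these genes was 4-fold higher. KLF1 stood at 13.9 CPM against 49.1 in the TYROBP-led members. VIM stood at 197 CPM against 738, and in the remaining 67 members at 3003 CPM. The mesenchyme list summed to 417 CPM in the CD40LG-led members, 1528 CPM in the TYROBP-led members and 6316 CPM in the remaining 67. The epithelial list summed to 280, 517 and 2841 CPM in the same sets. The S phase list summed to 448 CPM (416 to 482) in the CD40LG-led members and 1041 CPM (1001 to 1082) in the TYROBP-led members, beside 899 CPM in the other kept cells. The G2/M list summed to 1854, 3103 and 2837 CPM. MCM5, a replication helicase subunit, stood at 44.9 CPM against 153, and TOP2A, a mitotic topoisomerase, at 38.0 CPM against 177.

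**Figure D5:**
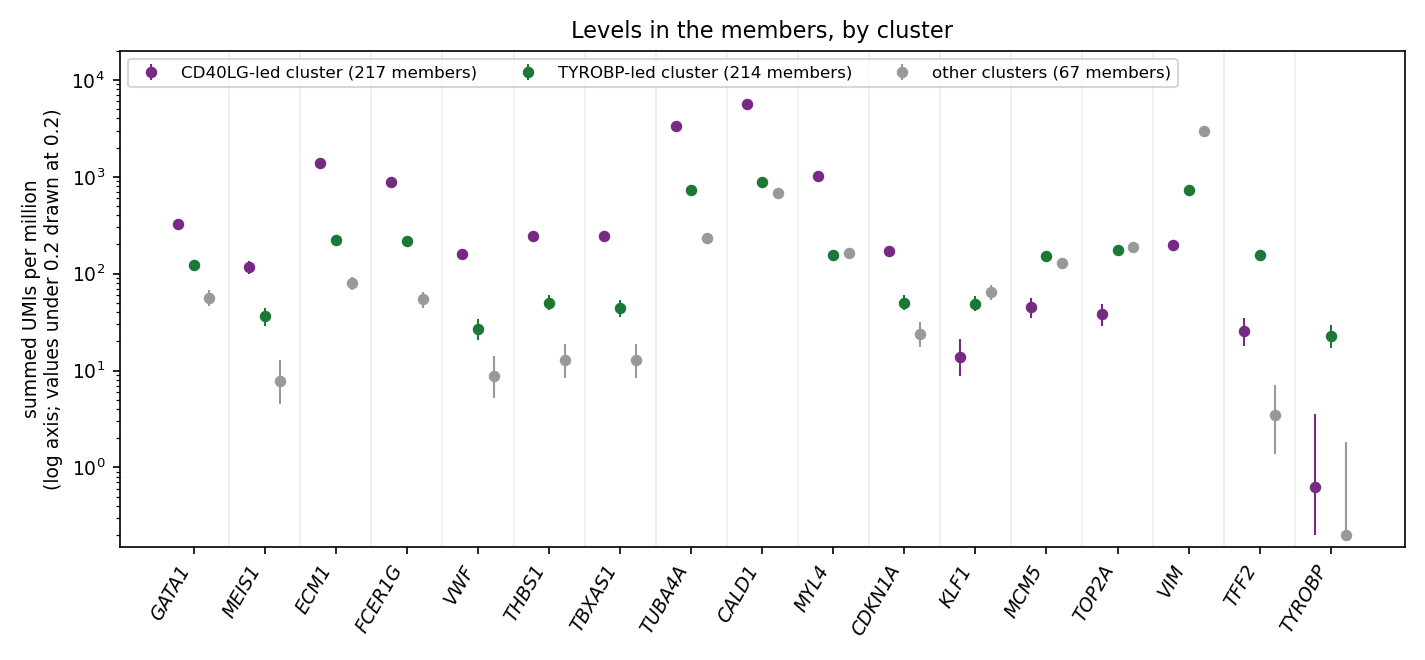
Levels of 17 genes in CPM (log axis) in the members of the CD40LG-led cluster, of the TYROBP-led cluster and of all other clusters, with 95% Poisson intervals; points under 0.2 are drawn at 0.2. TUBA4A is at 3383, 739 and 236 CPM in the 3 sets, while TOP2A is at 38.0, 177 and 188 CPM.

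Several of the genes that led the TYROBP-led cluster were higher in its other cells than in its members, and TFF2 was not, at 7.69 CPM against 155 in the members. TYROBP, an adaptor of myeloid receptors, was seen in 14 of the 498 members and stood at 22.5 CPM in the members of that cluster, against 450 CPM in its 181 cells that were not members. CTSS, a protease of macrophages, stood at 4.83 CPM against 156 and PTPRC, the leukocyte antigen CD45, at 7.25 CPM against 47.1. FCER1G stood at 218 CPM in the members of that cluster and 461 CPM in its other cells, so this marker did not separate them. The 181 cells had a median of 823 UMIs, and 61 of them had 1 UMI of CLEC1B or GP1BB.

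The Hulunbuir library gave almost no cell of this kind. Its 9583 kept cells held 1 UMI of CLEC1B and 9 of GP1BB in all, and 7 cells had 1 rule UMI. The 1 cell that met the rule had 3 UMIs of GP1BB, none of CLEC1B, and 12 UMIs of the 5 erythroid genes among 6321 UMIs. It also had 23 UMIs of the platelet lists and 44 UMIs of feature ENSOARG00020002928. Its share was 0.0104% (0.000264 to 0.0581) of kept cells, against 3.42% in the Ujumqin library. GATA1 stood at 0.00777 CPM over the Hulunbuir cells, and 1 cell beside the member was erythroid, against 31.8% of the Ujumqin cells. Endothelial cells were found in both, 309 in the Hulunbuir and 148 in the Ujumqin library. Members and erythroid cells were thus both nearly missing from this library, and whether that lies in the breed, the dissection, the red cell lysis or the library cannot be told apart.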

How the data were processed

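Each breed gave 1 droplet library made from pooled embryos. The authors aligned 10x Genomics 3′ reads to the Rambouillet genome with Cell Ranger and deposited filtered UMI count matrices. The header of the deposited matrices names version 5.0.0, the submitters' processing notes version 3.1.0.  The annotation had 26478 features, of which 9808 had no symbol; 93.1% of the symbols were also in RefSeq.

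From the counts, cells were filtered and members, endothelial and erythroid cells were picked as the report states. Levels are shares of summed counts, and a gene with 0 counts was set to 3 counts in ratios. A feature was called at 4-fold and at least 50 CPM in either group. On simulated counts of 26478 features, 97 of 97 features changed 8-fold passed this threshold. Features of low level were not changed in the simulation. It had counting error only and no spread between cells, so it checks the calculation alone. The clustering used 10000 UMIs per cell, logs, 2000 variable genes without the 8 rule genes, 30 components and Leiden at resolution 1 (leidenalg 0.10.2, scanpy 1.11.5, scipy 1.17.1).

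Counts of list genes at every level, and over all features with a UMI, were added after seeing the data. Named genes were the rule and marker genes, the 25 of largest ratio over other cells, the 10 of largest ratio over endothelial and erythroid cells, the 10 that were lowest, and the 2 to 6 genes of highest CPM in each list. Genes named for 0 or few UMIs and the genes compared between clusters were chosen after their values were seen. The members and the 21 gene lists were chosen with earlier results of these data known. Some genes are not reported here. Totals per library and depths stand in the report.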

Additional observations from a re-analysis of the deposited data

Results flagged for a closer look

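Among the 2505 Ujumqin barcodes that failed the cell filter, 36 carried at least 2 UMIs over CLEC1B and GP1BB, a signal in data that no comparison above used. All 36 had at least 10% mitochondrial UMIs, with a median of 20.3%, and a median depth of 1688 UMIs. Their 94 platelet genes summed to 17739 CPM. None of the 1126 Hulunbuir barcodes outside the filter carried 2 such UMIs.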

How the results depend on the processing

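Alternatives were tried on the number of members (498 Ujumqin, 1 Hulunbuir), the summed level of the 94 platelet genes (11053 CPM), that of the erythroid list (3745 CPM), the 111 features past 4-fold, the thinned GATA1 share (21.3%) and the 217 members of the main cluster. Values are given in that order, and the cause of each move was not tested. Smaller changes of the counts are not listed for every setting. With at least 1 rule UMI they were 965, 6, 5464 CPM, 5012 CPM and 34 features. At least 3 UMIs gave 422 Ujumqin members, 12450 and 3322 CPM and 133 features. At least 5 gave 364 Ujumqin and 0 Hulunbuir members, 13305 and 3160 CPM and 145 features. Both genes gave 391 and 0 members, 13593 and 3283 CPM and 145 features. At least 10, chosen after seeing the data, gave 316 members, 14863 and 3178 CPM and 164 features. Fewer than 2 endothelial genes gave 471 members, 11246.5 and 4012 CPM and 116 features. No such limit gave 513 members, 10457 and 3371 CPM and 107 features. The platelet genes summed to 11142 CPM with no cell filter. They summed to 11208 CPM without the cells that Scrublet marked, which were far fewer than expected. Totals without mitochondrial, ribosomal and haemoglobin genes gave 14367 and 4795 CPM, and the mean over cells 16387 CPM, 3606 CPM and 211 features. A 20 CPM minimum gave 198 features and a 2-fold threshold 240. Leaving out the 90 members that met the erythroid criterion, also chosen after seeing the data, gave 13961 and 1996 CPM and 156 features. The GATA1 share was 9.44% thinned to 500 UMIs and 34.5% at 2000. At resolution 0.5 one cluster held 431 members. The planned share of PF4 could not be given. No paired analysis was possible because each breed had 1 library. Depth limits sparse genes: the 0 UMIs of PPBP among the members' 6096267 allow up to 0.605 CPM.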

Other observations

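The TYROBP-led cluster held 181 cells that were not members. In these cells CORO1A, an actin regulator of leukocytes, stood at 458 CPM against 39.0 CPM in the 214 members beside them. CLEC12A, a myeloid lectin receptor, stood at 121 CPM against 2.42 CPM. The macrophage list summed to 1210 CPM against 104 CPM, while the 94 platelet genes summed to 4381 CPM against 7494 CPM. Feature ENSOARG00020002928 had a median of 12739 CPM per cell there and 21237 CPM in those members.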
